A study of Mus musculus with 6 samples.

Results

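The genes described here encode tubulins and the enzymes that add or remove chemical groups on tubulin. They were taken as every gene on the array with a symbol of Ttl or Agtpbp1, or a symbol starting with Tuba, Tubb, Tubg, Tubd, Tube, Ttll or Agbl and a digit. Only probe sets annotated with exactly 1 gene symbol counted, which gave 91 of the 45037 probe sets on the array. Each gene is represented by its brightest such probe set, chosen by its mean level on all 6 arrays. This left 34 of the 18193 genes measured this way, 17 tubulins and 17 enzymes. The rule did not use the difference between genotypes, but the family itself was chosen with results of these arrays known.

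RNA came from the olfactory epithelium, the sensory lining at the back of the nose, of mouse pups aged 1 day. There were 3 wild-type and 3 mutant pups, each on 1 array, and all were of a strain mix of C57Black6/J and 129SvJ. Controls and mutants received no treatment that the labels record. The series title names the zinc finger transcription factor KLF7 and asks for its possible targets in olfactory sensory neurons; the labels call the second group only mutant and do not give the allele, the sex or the litter of the pups.

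Microtubules are hollow polymers of alpha- and beta-tubulin pairs, and they carry transport in axons and form the core of cilia. Gamma-tubulin seeds new microtubules, and delta- and epsilon-tubulin belong to centrioles. After assembly, enzymes of the Ttll family add chains of glutamate (glutamylases) or glycine (glycylases) to tubulin tails. Ttl restores the last tyrosine of alpha-tubulin, and cytosolic carboxypeptidases, encoded by Agtpbp1 and the Agbl genes, remove glutamates again. Olfactory sensory neurons have both an axon and cilia, and they are replaced throughout life, so growing and mature neurons are found side by side.

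Every mutant array lay below every wild-type array for all 4 Klf7 probe sets, with log2 differences of -2.15 to -3.06. Array medians of the deposited intensities ran from 38.21 to 61.59. The 2 arrays numbered 3, one of each genotype, stood apart: for 18.9% of the genes tested both lay above the other 4 arrays, and for 19.1% both lay below. Markers of mature olfactory neurons were detected on every array, with none of the 13 measured genes of that list at the detection floor. Levels below are log2 of quantile-normalized intensity. The floor was 3.65, and genes with a mean below 5.19 were left out of the test as dim. Levels of different genes are not compared, because each probe set binds with its own strength.

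Most of the tubulin and tubulin-modifying genes bright enough to test lay lower in the mutant by small amounts, and none passed the test. Of the 26 genes tested, 22 had a lower mean in the mutant and 4 a higher one, with a median log2 difference, mutant minus wild type, of -0.25. Over all 12703 genes tested, 52.6% were lower and the median was -0.02. With limma, 0 of the 26 genes passed an adjusted p of 0.05, and neither did any other gene tested (0% called; 76 genes, or 0.598%, had an unadjusted p under 0.05). Klf7, lower by -2.15 on its brightest probe set, was among the genes that did not pass. Failing this test therefore does not show that a gene is unchanged. The groups did not overlap for 4 of the 26, or 15.4%, all lower in the mutant, where 1.95% of all genes tested were lower without overlap. For 0 of the 26 they did not overlap on the higher side, where 0.905% of all genes did so. These counts describe the 26 genes that were bright enough and have no test of their own, since the family was chosen with the results known. The lack of overlap depended on the normalization. In the deposited intensities the groups stayed apart for Ttll7 but overlapped for Tuba1a, Tubb6 and Ttll5. The median was -0.41 without wild-type array 3, -0.36 without both arrays numbered 3 and -0.17 with no normalization between arrays. The count of lower genes was 16 of 26 without mutant array 2, which gave the lowest value of 10 of the 26 genes.

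**Figure D1:**
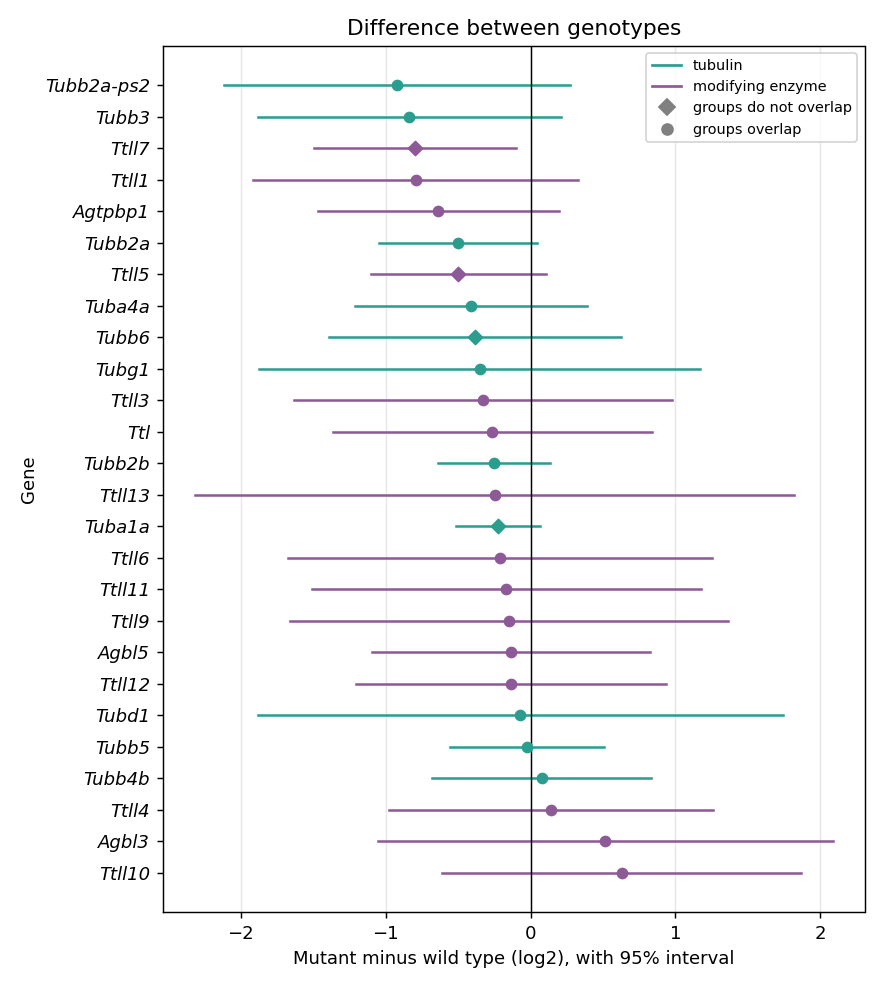
Log2 difference between mutant and wild-type means for the 26 tubulin and tubulin-modifying genes tested (horizontal axis, limma estimate with its 95% interval; 3 arrays per group). Of the points, 22 lie below 0, and Ttll7 is the gene whose interval, -1.49 to -0.10, leaves out 0 before adjustment for the number of genes tested; diamonds mark the 4 genes whose groups do not overlap.

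Of the 2 alpha-tubulins tested, Tuba1a had the smaller spread within each genotype. Tuba1a encodes the main alpha-tubulin of growing neurons. Its level was 12.65, 12.59 and 12.54 on wild-type arrays 1, 2 and 3 and 12.36, 12.47 and 12.28 on the mutant arrays. Every mutant array thus lay below every wild-type array, although by little. The means were 12.59 ± 0.06 and 12.37 ± 0.10 (SD, n = 3 each), a difference of -0.22 (SE 0.132, 1.17-fold lower; limma, adjusted p = 1). The suffix of this probe set (_x_at) means, by the maker's naming, that some of its probes may also bind other sequences, and alpha-tubulin genes are close copies of each other. The probe sets used for Tubb4b, Tubb2a-ps2, Ttll1 and Agbl5 carry the same suffix.

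Tuba4a, an alpha-tubulin made without the terminal tyrosine, differed by -0.41 (SE 0.364), and its groups overlapped because wild-type array 3 gave the lowest value, 9.02. The difference was -0.12 without wild-type array 2 and -0.77 without wild-type array 3. Its second probe set above the dim level differed by -0.52. Tuba3b, an alpha-tubulin of testis, and Tuba8 were too dim to test. The single-gene probe set of Tuba3b lay at the floor on 5 of the 6 arrays, and Tuba8 ranged from the floor to 5.78 on mutant array 2. Probe sets shared by Tuba1b or Tuba1c and another locus are outside the rule; the brightest of these differed by 0.08 for Tuba1b and by -0.05 for Tuba1c, with overlapping groups. Probe sets shared by Tuba3b and Tuba3a, also outside the rule, lay above the dim level, with wild-type means of 7.22 and 6.53. They differed by -0.48 and -0.87 with overlapping groups, and both were highest on wild-type array 3.

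Tubb3, Tubb2a and Tubb2b were each lower on the mutant array of every same-numbered pair, as were 9.46% of all genes tested, and none of them passed the test. Tubb3 encodes the beta-tubulin used as a marker of neurons, olfactory neurons included. Its level was 9.18, 8.93 and 8.31 on wild-type arrays 1, 2 and 3 and 8.53, 8.36 and 7.03 on the mutant arrays. Wild-type array 3 fell inside the mutant range, so the groups overlapped, and mutant array 3 was the lowest of all. The means were 8.81 ± 0.45 and 7.97 ± 0.82 (SD, n = 3 each), a difference of -0.84 (SE 0.475, 1.78-fold lower; limma, adjusted p = 1). Without mutant array 3 the difference was -0.36, and without wild-type array 3 it was -1.10.

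Tubb2a and Tubb2b encode 2 further beta-tubulins abundant in neurons. Tubb2a read 10.34, 10.62 and 10.63 on the wild-type arrays and 10, 9.75 and 10.34 on the mutant arrays. Wild-type array 1 and mutant array 3 met at the same level, and the other arrays were separated by genotype. The difference was -0.50 (SE 0.247, 1.41-fold lower; limma, adjusted p = 1), the second smallest unadjusted p among the 26 genes, 0.068. The second probe set of Tubb2a also differed by -0.50, with a larger SE of 0.40 and overlapping groups.

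Tubb2b read 11.85, 11.91 and 12.17 on the wild-type arrays and 11.52, 11.70 and 11.95 on the mutant arrays. Both arrays numbered 3 were the highest of all 6, and mutant array 3 lay above wild-type arrays 1 and 2. The difference was -0.25 (SE 0.176), and it was lower within each pair, by -0.33, -0.21 and -0.22. A difference of this size is small beside the interval of the test, which ran from -0.64 to 0.13. It was -0.15 without mutant array 1.

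Tubb5, a beta-tubulin of many cell types including dividing cells, gave a different picture on its 2 bright probe sets. The brighter one read 11.06, 10.52 and 10.59 on the wild-type arrays and 10.87, 10.86 and 10.36 on the mutant arrays, a difference of -0.02 (SE 0.243; 0.056 with no normalization between arrays). The other, with a mean only slightly lower (10.59 against 10.71), read 10.78, 10.90 and 10.93 on the wild-type arrays and 10.40, 10.10 and 10.42 on the mutant arrays. On that one the groups did not overlap and the difference was -0.56 (SE 0.15, with dim and bright probe sets fitted together). Which of these values stands for Tubb5 thus depends on the rule for choosing a probe set.

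Tubb6, a beta-tubulin of many tissues, had levels of 7.75, 7.54 and 7.62 on the wild-type arrays and 7.53, 7.41 and 6.81 on the mutant arrays. The groups did not overlap, but mutant array 1 lay just under wild-type array 2. The difference was -0.38 (SE 0.457; limma, adjusted p = 1), -0.18 without both arrays numbered 3 and -0.17 without mutant array 3 alone. Its second probe set differed by -0.33 (SE 0.93) with wide overlap. Tubb4b, a beta-tubulin abundant in cilia, differed by 0.077 (SE 0.343). Wild-type array 3 was at 10.48 and the other arrays between 11.40 and 12.09. Its other 2 probe sets above the dim level differed by -0.24 and -0.54. One of these was 10.44 and 9.80 on the arrays numbered 3 and between 5.67 and 6.83 on the other 4, a spread between array numbers far above that between genotypes.

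The pseudogene Tubb2a-ps2 differed by -0.92 (SE 0.543). Its levels were 8.52, 7.32 and 9.01 on the wild-type arrays and 7.69, 6.66 and 7.74 on the mutant arrays, lower on the mutant array of each pair and overlapping between groups. Leaving out wild-type array 3 or mutant array 2 gave -0.57 or -0.58, and leaving out wild-type array 2 gave -1.40. Averaged over all its probe sets, it differed by -0.32. A probe set annotated to both Tubb2a-ps2 and Tubb2b also differed by -0.92. Another probe set of the pseudogene differed by 0.15, and signal from the parent genes cannot be told apart from signal of the pseudogene. Tubb1, the beta-tubulin of platelets, and Tubb4a, a beta-tubulin of brain, were too dim to test, with levels between 3.68 and 4.79 for Tubb1 and between the floor and 5.25 for Tubb4a.

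Of the tubulins outside the alpha and beta families, Tubg1, the widely used gamma-tubulin, had levels of 6.01, 6.29 and 5.34 on the wild-type arrays and 6.04, 4.99 and 5.56 on the mutant arrays. Only pair 2 showed a sizeable gap, -1.30, and the difference of the means was -0.35 (SE 0.692), or -0.079 without mutant array 2. Tubd1, the delta-tubulin gene, was just above the dim level with a mean of 5.22 and differed by -0.07 (SE 0.824); both its arrays numbered 3 read 4.38. Tubg2 and Tube1, the second gamma-tubulin and the epsilon-tubulin gene, were too dim to test. Tubg2 lay at the floor on 4 arrays, including all 3 mutant arrays, and Tube1 ranged from the floor to 5.92.

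**Figure D2:**
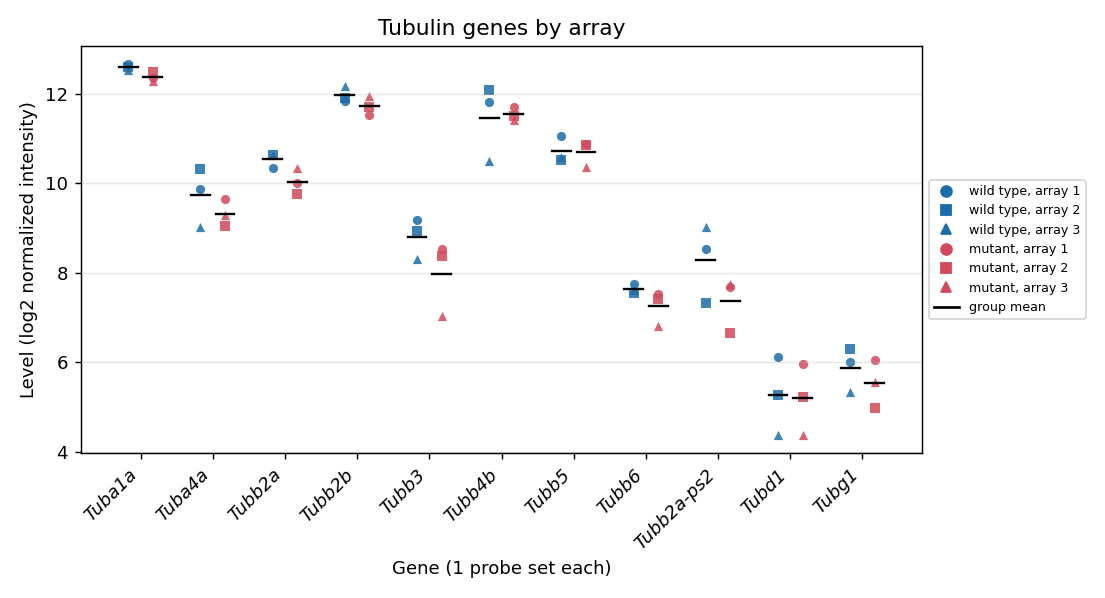
Log2 normalized intensity of the 11 tubulin genes tested (vertical axis) on each of the 3 wild-type (blue) and 3 mutant (red) arrays, with the replicate number as the marker shape and group means as bars. The mutant points of Tuba1a and Tubb6 all lie below the wild-type points, while 1 mutant point of Tubb2a and 2 of Tubb3 lie above the lowest wild-type point of the gene; levels of different genes cannot be compared.

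Of the enzymes, the glutamylases Ttll7 and Ttll5 separated the groups. Ttll7 is a polyglutamylase that acts mainly on beta-tubulin and is prominent in neurons. Its level was 9.63, 9.13 and 9.44 on wild-type arrays 1, 2 and 3 and 8.71, 8.70 and 8.40 on the mutant arrays. All mutant values lay below the lowest wild-type value, that of array 2. The means were 9.40 ± 0.25 and 8.60 ± 0.17 (SD, n = 3 each), a difference of -0.80 (SE 0.316, 1.74-fold lower; limma, adjusted p = 1). Its unadjusted p of 0.028 ranked 45 among the 12703 genes tested, and it was the 1 gene of the 26 under 0.05, where 0.441% of all genes were so and lower. The exact permutation p was 0.1, the smallest that 3 arrays against 3 can give. Leaving out any 1 array gave differences between -0.93 and -0.67. None of the family's genes tested was under 0.05 unadjusted with array medians set equal, with no normalization between arrays, with the mean of all probe sets, without wild-type array 1 or without mutant array 1. A second, dimmer Ttll7 probe set differed by -0.07 (SE 1.32), with values from 4.45 to 8.42 that followed the array number and not the genotype.

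Ttll5, a glutamylase that acts mainly on alpha-tubulin, had levels of 9.51, 9.74 and 9.64 on the wild-type arrays and 9.09, 9.08 and 9.23 on the mutant arrays. The spread within each genotype, SD 0.11 and 0.08, was small beside the gap between them. The difference was -0.50 (SE 0.275, 1.41-fold lower; limma, adjusted p = 1), and between -0.55 and -0.45 without any 1 array. The second Ttll5 probe set also differed by -0.49, with a larger SE of 0.54 and overlapping groups.

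KLF proteins bind CACCC-type and GC-rich DNA, so bases before the start sites of genes without overlap are shown, with Tubb6 left out. Those shown are of Ttll7, Ttll5 and Tuba1a, from the RefSeq promoter table (build GRCm38.p6). Each runs 5′ to 3′ over the 250 bases before the annotated start, with matches to CACCC or GGGCGG on either strand (GGGTG and CCGCCC in reverse) in capitals. Ttll7 lies at chr3:146852117-146852366 (+ strand), Ttll5 at chr12:85824670-85824919 (+ strand) and Tuba1a at chr15:98953502-98953751 (- strand).
Ttll7: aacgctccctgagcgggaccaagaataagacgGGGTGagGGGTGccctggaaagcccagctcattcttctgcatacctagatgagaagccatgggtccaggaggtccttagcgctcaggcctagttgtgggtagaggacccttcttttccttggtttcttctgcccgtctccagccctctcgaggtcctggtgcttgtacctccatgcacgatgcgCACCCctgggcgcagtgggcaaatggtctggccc
Ttll5: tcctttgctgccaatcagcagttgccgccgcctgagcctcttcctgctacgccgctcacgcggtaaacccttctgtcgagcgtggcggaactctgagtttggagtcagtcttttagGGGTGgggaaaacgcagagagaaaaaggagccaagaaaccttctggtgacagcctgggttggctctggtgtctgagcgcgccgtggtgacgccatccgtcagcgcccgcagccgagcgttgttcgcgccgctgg
Tuba1a: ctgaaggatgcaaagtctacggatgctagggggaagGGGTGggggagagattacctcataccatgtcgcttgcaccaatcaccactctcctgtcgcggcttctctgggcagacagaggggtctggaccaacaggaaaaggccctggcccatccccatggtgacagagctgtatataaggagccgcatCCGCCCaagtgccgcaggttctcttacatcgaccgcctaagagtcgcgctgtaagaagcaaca

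Ttll7 held 3 matches to CACCC, the nearest ending 29 bases before the start, and Ttll5 and Tuba1a held 1 each. For GGGCGG, Ttll7 and Ttll5 held 0 matches and Tuba1a held 1. Such short motifs are common. Of the 34 windows found for 28 of the 34 genes, 52.9% held CACCC, beside 52% of all 32851 windows in the table. GGGCGG was in 47.1% of the windows of these genes and in 32.7% of all. The arrays do not measure binding, and a match is only a match of letters.

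Ttll1, the catalytic subunit of a neuronal glutamylase complex that acts on alpha-tubulin, had levels of 7.91, 8.25 and 8.65 on the wild-type arrays and 8.06, 6.50 and 7.87 on the mutant arrays. Its difference of -0.79 (SE 0.509) was nearly as far from 0 as that of Ttll7, but it rested on mutant array 2: without that array it was -0.31. With the mean of all probe sets it was -0.11; the other 2 Ttll1 probe sets were dim and differed by 0.20 and 0.25. The remaining glutamylases differed by less than their SE. Ttll13, Ttll6, Ttll11 and Ttll9 differed by -0.25 (SE 0.94), -0.21 (SE 0.665), -0.17 (SE 0.611) and -0.15 (SE 0.687), and Ttll4 by 0.14 (SE 0.508).

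Ttll13 and Ttll9 followed the array number. Ttll13 was 8.29 and 8.14 on the arrays numbered 3, against 4.82 to 6.23 on the other 4. Ttll9 was 8.07 and 8.29 on the arrays numbered 3, against 6.09 to 6.70 on the others. Ttll3, Agbl5 and Tubb2b were also highest on both arrays numbered 3, and Ttll10, Ttll4, Ttll6, Tubb3, Tubb4b and Tubd1 were lowest there. These 5 and 6 genes are 19.2% and 23.1% of the 26, close to the 18.9% and 19.1% of all genes tested.

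Ttl, the tyrosine ligase of alpha-tubulin, had levels of 6.78, 7.32 and 7.79 on the wild-type arrays and 6.94, 6.92 and 7.23 on the mutant arrays. The mutant values all fell inside the wild-type range, and the difference was -0.26 (SE 0.50), or -0.018 without wild-type array 3. The glycylases went both ways. Ttll3, which starts glycine chains, differed by -0.33 (SE 0.593), and Ttll10, which lengthens them, by 0.63 (SE 0.563), with mutant array 2 at 8.97. Without that array Ttll10 differed by 0.10. Ttll8, a further chain-starting glycylase, lay at the floor on 5 arrays and was not tested. Ttll12 carries the family's name, and it differed by -0.13 (SE 0.486).

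Agtpbp1 encodes the carboxypeptidase that shortens glutamate chains, and its loss in mice is known for the death of Purkinje cells and of olfactory bulb mitral cells. Its level was 9.25, 8.43 and 9.52 on the wild-type arrays and 8.25, 8.48 and 8.55 on the mutant arrays. Wild-type array 2 lay among the mutant values, while the other wild-type arrays stood well above all 3 mutant arrays. The means were 9.07 ± 0.57 and 8.43 ± 0.16 (SD, n = 3 each), a difference of -0.64 (SE 0.378, 1.55-fold lower; limma, adjusted p = 1). Leaving out wild-type array 2 gave -0.96 and leaving out wild-type array 3 gave -0.41. Averaged over all its probe sets, Agtpbp1 differed by -0.34, but its other probe sets were dim, with means of 5.04 and 3.80.

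Agbl5, which removes the branching glutamate, had levels of 9.23, 9.95 and 10.40 on the wild-type arrays and 9.34, 9.14 and 10.70 on the mutant arrays. The highest value of each genotype was that of array 3, and the difference was -0.13 (SE 0.435). Agbl3 differed by 0.51 (SE 0.713), with mutant array 2 highest at 6.89, and was higher in pairs 1 and 2 and lower in pair 3. Without mutant array 2 it differed by 0.078. Agbl4 ranged from the floor to 5.47 and was not tested.

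**Figure D3:**
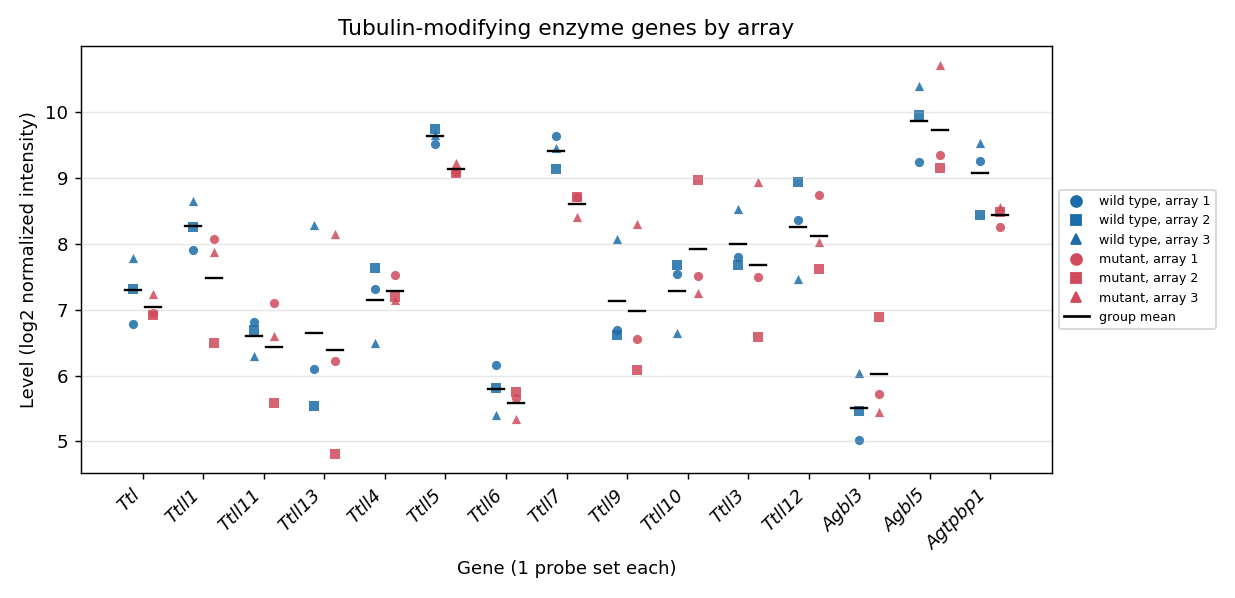
Log2 normalized intensity of the 15 genes of tubulin-modifying enzymes tested (vertical axis) on each of the 3 wild-type (blue) and 3 mutant (red) arrays, with marker shapes for the replicate numbers and bars for group means. Ttll5 and Ttll7 are the genes whose mutant points all lie below the wild-type points, and the triangles of Ttll9 and Ttll13 show both arrays numbered 3 far above the rest.

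Same-numbered pairs of arrays differed in how many of the genes were lower. The labels give replicate numbers only, so the pairing rests on correlations between arrays, given below. In pair 1, 17 of the 26 genes were lower on the mutant array, in pair 2, 22, and in pair 3, 16. The median differences of the 26 genes were -0.17, -0.55 and -0.19, beside 0.03, -0.15 and 0.01 over all genes tested. Tubulins were lower in 10, 10 and 8 of 11 cases and enzymes in 7, 12 and 8 of 15. In each of the 3 pairs 10 of the 26 genes were lower, or 38.5%, where 9.46% of all genes tested were. These were Tuba1a, Tubb2a, Tubb2b, Tubb3, Tubb6, Tubb2a-ps2, Tubd1, Ttll5, Ttll6 and Ttll7, of which Tubd1 was nearly level in pair 3. No gene of the 26 was higher in each pair, where 6.31% of all genes tested were.

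**Figure D4:**
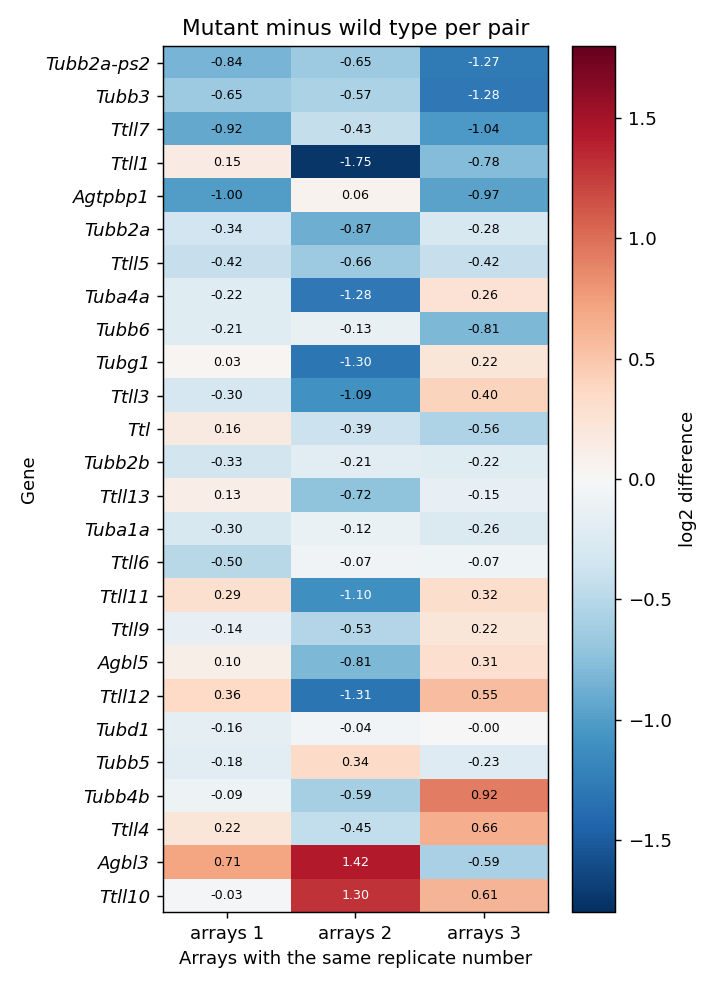
Log2 difference between the mutant and the wild-type array with the same replicate number (columns, 3 pairs) for the 26 genes tested (rows, ordered by their mean difference), blue for lower and red for higher in the mutant. The second column has 22 lower genes, among them Ttll1 at -1.75, Ttll12 at -1.31, Tubg1 at -1.30 and Tuba4a at -1.28.

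Probe sets of the same gene give a second reading of the same RNA, although not an independent pup. Of the 91 probe sets, 43 had a mean above the dim level, and 14 genes had more than 1 such probe set. For 8 of the 14 genes all of these were lower in the mutant, for 1 (Ttll10) all were higher, and for 5 the signs differed. Those 5 were Ttll4, Ttll9, Ttll13, Tubb2a-ps2 and Tubb4b. The brightest and the second probe set differed little from each other for Tubb2a, Ttll5, Tubb6 and Tuba4a, with values given above, and more for Tubb5 and Ttll7.

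**Figure D5:**
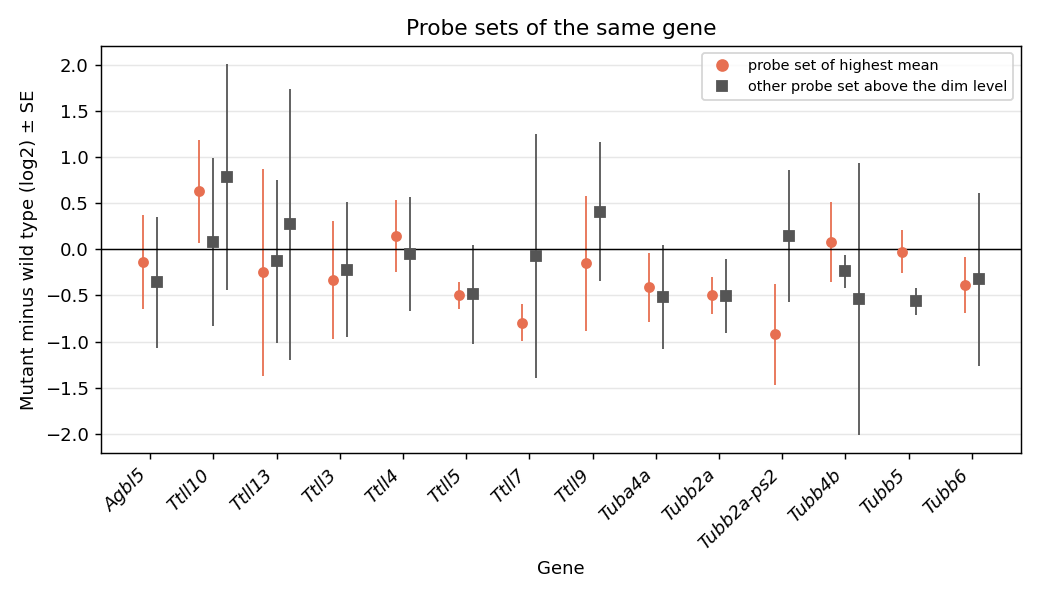
Log2 difference between mutant and wild-type means (vertical axis, with its SE from a limma fit of all probe sets) for the 14 genes with more than 1 probe set above the dim level; the circle is the probe set of highest mean. Tubb2a, at -0.50 on both probe sets, and Ttll5, at -0.50 and -0.49, agree in size, while the 2 probe sets of Tubb5 lie at -0.02 and -0.56.

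Other genes that act on tubulin were taken from a list of 61 covering folding, acetylation, nucleation and severing, of which 48 were tested. With limma 0 of these passed in either direction, with 0 at an unadjusted p under 0.05; 31 were lower and 17 higher, with a median of -0.03. The folding cofactors and chaperonin subunits that build tubulin pairs were lower in 20 of 23 cases, but with a median of only -0.09. Over all genes tested, 52.6% were lower. In pairs 1, 2 and 3 the medians of the folding genes were 0.09, -0.38 and 0.03. Tbcb, a folding cofactor of alpha-tubulin, was lower without overlap, from 9.66 to 9.27, a difference of -0.39 (SE 0.28; limma, adjusted p = 1). Fignl1, a protein of the family that severs microtubules, was also lower without overlap, by -0.72 (SE 0.61; limma, adjusted p = 1). These 2 were the tested genes of that list without overlap on the lower side, beside 1.95% of all genes tested, and 0 were so on the higher side, beside 0.905%. The gamma-tubulin ring complex was lower in 6 of 8 cases with a median of -0.09, and the genes of acetylation and vasohibin detyrosination were higher in 4 of 5 with a median of 0.06. Accessory and regulatory factors of the glutamylases were higher in 3 of 4 cases with a median of 0.41. Their medians were -0.09 and -0.42 in pairs 1 and 2 and positive in pair 3. The 3 higher genes, Nicn1, Cep41 and Tpgs2, each had their lowest level on wild-type array 3. Nicn1 lay at the floor there, and Cep41 and Tpgs2 were at 4.66 and 6.02. Severing genes were higher in 4 of 6 cases with a median of 0.02. Tpgs1, a subunit of the Ttll1 complex, was too dim to test and is named after its values were seen. Its mean was 4.25 on the wild-type arrays, 1 of them at the floor, and 5.18 on the mutant arrays, with higher values in each pair, by 0.73, 1.35 and 0.72.

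Markers of mature olfactory neurons were lower beside the neuronal tubulins. Of 13 measured marker genes 11 were lower in the mutant, with a median difference of -0.82, and 0 were at the floor on any array. With limma 0 were called and 6 were lower at an unadjusted p under 0.05. Over all genes tested, 52.6% were lower, and 0.441% were lower at that unadjusted p. Omp, a gene of this list, differed by -0.36 with overlapping groups. The summed intensity of the 13 markers was 8608 to 10718 on wild-type arrays and 5321 to 7023 on mutant arrays, with no overlap. Their median log2 level did overlap, at 8.94 to 9.49 on wild-type arrays and 8.38 to 9.16 on mutant arrays. Markers of immature olfactory neurons, among which Tubb3 was not counted, were lower in 11 of 16 cases with a median of -0.12. With limma 0 of the 16 were called and 1 was lower at an unadjusted p under 0.05. Lower without overlap were 4 of these 16 and 6 of the 13 mature markers, beside 1.95% of all genes tested. The summed intensity of the immature markers was 30463 to 34613 on wild-type arrays and 28842 to 32368 on mutant arrays, and 0 were at the floor. In RNA from whole tissue, fewer neurons and less RNA per neuron cannot be told apart. The part of neuron content in the tubulin differences was not tested.

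Markers of dividing cells were lower in 12 of 13 cases, beside 52.6% of all genes tested, with a median of -0.32. Their summed intensity was 5917 to 7978 in wild type and 5625 to 6552 in mutant, with 1 gene at the floor on some array. Multiciliated respiratory cells, whose cilia are rich in modified tubulin, had markers that were higher in 12 of 15 cases with a median of 0.17. Their summed intensity was 7172 to 9783 in wild type and 8704 to 11729 in mutant, with 1 of 17 measured genes at the floor on some array. Markers of sustentacular cells and Bowman glands, the supporting and secretory cells of this tissue, were higher in 8 of 9 cases with a median of 0.30. Their summed intensity was 11380 to 14609 on wild-type arrays and 12307 to 15457 on mutant arrays, with 2 of 10 measured genes at the floor on some array. Markers of horizontal basal cells, its reserve stem cells, were higher in 6 of 7 cases with a median of 0.36. Their medians in pairs 1, 2 and 3 were 1.56, -1.86 and 1.18. Their summed intensity was 3884 to 7986 and 5820 to 8634, with 1 of 8 measured genes at the floor on some array, and limma called 0 genes of either list. Squamous epithelium, a tissue that a dissection of the nose can include, ranged from 391 to 5341 and from 232 to 1809, highest on wild-type array 2, with 5 of 9 genes at the floor on some array. The part of these cells in the results was not tested.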

How the data were processed

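RNA from 3 wild-type and 3 mutant pups was measured on 1 array each. The deposited values are linear intensities, 1 per probe set and array. The authors' summarisation, background correction and scaling are not given in the sources used here. Names come from the platform annotation (34945 probe sets with 1 symbol, 932 with several, 9160 with none). Arrays were quantile normalized with limma 3.58.1 in R 4.3.3, set to at least the 20th percentile of values (intensity 12.56) and put on a log2 scale, which understates differences near the floor. Genes with a mean below the 40th percentile of single-gene probe sets (5.19) were left out, which kept 12703 of 18193 genes. Genotypes were compared with lmFit and eBayes (intensity trend; two-sided). P-values were adjusted by Benjamini-Hochberg over 12703 genes, with a threshold of 0.05; the code was checked on simulated arrays. Members, lists and tests were chosen with earlier results of these data known. Every array is given for genes without overlap, the 6 of smallest unadjusted p and a fixed list; Tuba1b, on that list, has no single-gene probe set.

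Replicate numbers come from the sample titles. Deviations from group means correlated at 0.473, 0.181 and 0.564 between same-numbered arrays, all above 0.1, and so they were treated as pairs, although the second wild-type array correlated more closely with the first mutant array (0.219). A fit with the number as a block was an alternative, beside other filters, scalings, floors, variance models, probe set rules and arrays left out.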

Additional observations from a re-analysis of the deposited data

How the results depend on the processing

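Under all 17 alternatives limma called 0 genes of the family, 0 of the other tubulin pathway genes and 0 genes over the array. With the replicate number as a block it again called 0 of the 26, and the block changed no other call; Ttll7, Tubb2a-ps2 and Tubb3 then had an unadjusted p of 0.0343, 0.0428 and 0.0471 (adjusted p = 1 each). Ttll7, under 0.05 unadjusted as reported, was not so with equal array medians, no normalization, the mean of all probe sets, or without array 1 of either genotype. The count of lower genes stayed within 1.5 times the reported one, at 16 to 21 with 1 array left out. The median of -0.25 became -0.17 with no normalization between arrays and -0.36 without both arrays numbered 3, and ran from -0.41 to -0.23 with 1 array left out. The direction turned for 10 genes with small differences. It turned for Tubb5 with no normalization (0.056) and without both arrays numbered 3 (0.077). With array weights it turned for Ttll13 (0.19), Ttll9 (0.014) and Tubb4b (-0.18), and with the mean of all probe sets for Ttll9 (0.060) and Tubb4b (-0.055). Without both arrays numbered 3 it also turned for Ttll4 (-0.12) and Tubb4b (-0.34). With 1 array left out, differences ran from -0.62 to 0.16 for Agbl5, -0.49 to 0.26 for Ttll11, -0.53 to 0.20 for Ttll12 and -1.13 to 0.60 for Ttll13. They ran from -0.97 to 0.22 for Ttll3, -0.19 to 0.39 for Ttll4, -0.82 to 0.33 for Ttll9, -0.41 to 0.39 for Tubb4b, -0.46 to 0.14 for Tubb5 and -0.51 to 0.34 for Tubd1. These turns came without wild-type array 1 (Tubb5), 2 (Ttll12) or 3 (Agbl5, Ttll4, Ttll9, Ttll13, Tubb4b), and without mutant array 1 (Agbl5, Ttll9, Tubb4b), 2 (Agbl5, Ttll3, Ttll9, Ttll11, Ttll12, Ttll13) or 3 (Tubb5, Tubd1). Tubd1 was too dim to test without wild-type or mutant array 1, and 21 genes were tested with the mean of all probe sets. The cause of these turns was not tested. With 3 arrays a group, the number of arrays limits the precision.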
